A study of Oncorhynchus kisutch with 206 samples.

Results

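Among coho salmon of like stage, 150 array probes differed more between fish than nearly all others. They were chosen from the readout: of 43630 probes, 10942 had a value on all 206 arrays, and for each of these the standard deviation (SD) of its log2 ratio was taken among smolts, among ocean summer fish and among ocean fall fish. The probes were ranked by the smallest of the 3 SDs, and the 150 highest are the members. All 150 passed the filter on empty values in every comparison below. By their correlation 119 members moved together, along with many other probes of the array. A group of 14 members was mostly either above the pool or far below it in a fish, and a group of 6 members varied apart from both.

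Coho salmon (Oncorhynchus kisutch) hatch in rivers, live there as parr, turn into smolts that tolerate sea water, and grow at sea before returning to spawn. The brain and the pituitary beside it direct growth, the change to sea water and maturation through hormones. A piece of brain holds many cell types, so fewer cells of a type and less RNA per cell cannot be told apart in any value here. Probes carry only their column and row on the array (C050R072 is column 50, row 72) and neither gene names nor sequences are paired with them in the tables used here, so no function is given to a member.

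RNA from the brain of 1 fish was hybridised on each array against a pool of all brain samples. The parr (Parr_River) were 5 hatchery fish from Chilliwack in 2008, and the smolts (Smolt_River) were 16 Chilliwack fish of 2008 and 10 Capilano, 8 Chehalis, 8 Puntledge and 9 Salmon fish of 2009, 33 of hatchery and 18 of wild origin. The 12 spring fish (Ocean_Spring) were wild fish from the south Strait of Georgia (south_SoG) in 2009. The 51 summer fish (Ocean_Summer, 23 hatchery and 28 wild) comprised 5 from the northern-mid Strait (NM_SoG) and 3 from the south Strait in 2008, and 29, 6 and 8 from the northern-mid Strait, the south Strait and the west coast (WCVI) in 2009. The 78 fall fish (Ocean_Fall, 31 hatchery and 47 wild) comprised 11 from the northern-mid Strait and 17 from the west coast in 2008, and 21, 22 and 7 from the northern-mid Strait, the south Strait and the west coast in 2009. The 9 winter fish (Ocean_Winter, 4 hatchery and 5 wild) came from the northern-mid Strait (3) and the west coast (6) in 2009. Mean fork length was 5.06 cm in parr, 11.2 cm in smolts, 11.5 cm in spring, 17.6 cm in summer, 25.1 cm in fall and 34.5 cm in winter fish. The labels name no treatment.

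Values are read as log2 of fish over pool. That reading is likely but rests on the values: taken so, the mean of the back-transformed ratios lay near the pool for the members (median 0.20 on the log2 scale), and taken as pool over fish it lay at 2.33. A natural log is not excluded, with a median of 0.52, and would make every fold larger. A value of -5 thus marks a fish far below the pool, and 0 a fish level with it. Array SD is the SD of an array over the probes with a value on all arrays that are not members. Its median was 0.736 and it lay between 0.497 and 1.67. Of the values of an array, 16.6% to 57.6% were empty. These measures of array spread are set beside the results they move with. The arrays lie on 61 slides. Precision is limited by how many arrays a group has.

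The member with the widest spread was C050R072, with a smallest SD of 2.76 in smolts. Its log2 ratio ran from -6.87 to 2.44 with a median of -5.41 in the 51 smolts, from -7.36 to 2.27 with a median of -3.60 in the 51 summer fish, and from -7.00 to 3.12 with a median of -2.77 in the 78 fall fish. The stages overlapped over nearly their whole range, and in each of them single fish lay above the pool: 7 smolts, 15 summer fish and 27 fall fish. The next members were C068R092 (smallest SD 2.62) and C145R160 (2.57). At the limit, C081R034 was the last member at 1.5482 and C024R026 the first probe left out at 1.5474, so no gap marks the edge of the set. The smallest SD was that of smolts for 96 members, of summer fish for 29 and of fall fish for 25.

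The median SD of the members in the stages that chose them was 1.80 in smolts, 1.89 in summer and 1.96 in fall, beside 0.71, 0.61 and 0.59 for all 10942 probes. The 3 stages the rule did not use hold other fish. There the median SD of the members was 1.93 in 5 parr, 1.79 in 12 spring fish and 2.76 in 9 winter fish, beside 0.43, 0.47 and 0.50 for all probes. Of the 150 members, 140 in parr, 126 in spring and 149 in winter were among the 5% of probes with the largest SD. The parr count was 111 without fish 36 and 128 to 139 without any one of the other fish. The lowest SD of a member was 0.62 in spring and 0.50 in parr, against medians of 0.47 and 0.43 over all probes. On the array the members lay from column 5 to 266 and from row 1 to 170, and the median r of members with non-members next to a member on the array was 0.0047, beside -0.04 with drawn non-members. The 12 control rows with at least 100 values had smallest SDs of 0.23 to 0.43.

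**Figure D1:**
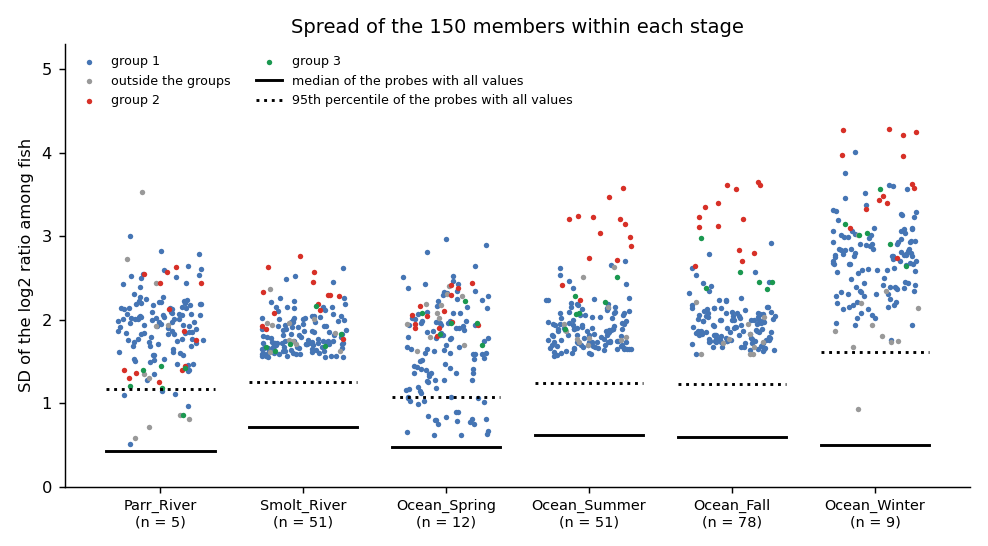
SD of the log2 ratio among fish of a stage (vertical axis, log2 units) for each of the 150 members (points, coloured by group) in the 6 stages, with the median (solid line) and the 95th percentile (dotted line) of the 10942 probes with all values. Smolts, summer and fall chose the members; in parr, spring and winter 140, 126 and 149 members lie among the top 5% of probes.

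To see which members moved together, each value was centred on its stage, year and place, and members were joined by the correlation of these centred values over 180 smolts, summer and fall fish. The median r between pairs of members was 0.69, beside 0.02 between pairs of 1500 drawn probes with all values. Cutting the tree at r = 0.5 gave 3 groups of at least 5 members, with 119, 14 and 6 members, then a set of 4, a pair and 5 single members. Inside the groups the mean r was 0.76, 0.90 and 0.91. In the 26 fish of the other 3 stages, which took no part in the grouping, it was 0.86, 0.91 and 0.93. These correlations describe the fish and share their arrays and slides, and they carry no test. Members of a group move together by the way the groups were made. Counts of a group's members in the comparisons below are thus not counts of separate results.

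**Figure D2:**
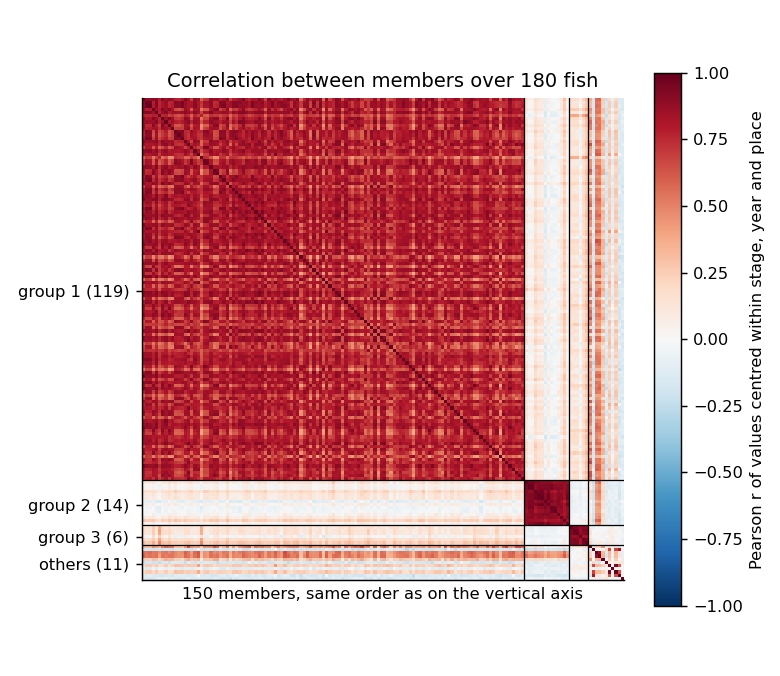
Pearson r between members over 180 smolts, summer and fall fish, after centring within stage, year and place, with members in the same order on both axes. The 119 members of group 1 form the large block, and groups 2 (14 members) and 3 (6 members) form blocks of their own, and the means of the 3 groups correlate with each other at r of -0.04 to 0.17.

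Group 1 was centred on C081R023, whose mean r with the other members of the group was 0.84. Averaged over its 119 members, the log2 ratio ran from -4.31 to 1.26 with a median of 0.26 in smolts, from -4.71 to 1.29 with a median of 0.57 in summer fish, and from -5.03 to 1.61 with a median of -0.70 in fall fish. In smolts and summer most fish had a group mean above 0, and a tail of fish lay far below the pool. Over the 180 fish the group mean was below -4 in 13, between -4 and -2 in 34, between -2 and 0 in 36 and above 0 in 97. In the 78 fall fish these numbers were 5, 26, 16 and 31. The group was part of a wider pattern over the array. The first component of the probes that are not members accounted for 85.1% of the variance of its mean over fish, and 2111 other probes with at least 100 values followed that mean at r over 0.7, while 120 ran against it at r under -0.7. The closest of these were C171R077 (r = 0.94), C114R058 (r = 0.94) and C161R070 (r = 0.93).

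The 14 members of group 2 had another distribution. Their mean log2 ratio was below -4 in 84 of the 180 fish and above 0 in 66, with 18 fish between -4 and -2 and 12 between -2 and 0. The central member C145R160 shows it: it ran from -6.87 to 2.32 in smolts with a median of -5.11, from -6.55 to 2.10 in summer with a median of -1.72, and from -6.95 to 3.15 in fall with a median of -1.29. It was above the pool in 8 of 51 smolts, 21 of 51 summer fish and 36 of 78 fall fish. The same 2 levels appeared in fish that took no part in the rule: the group mean was above 0 in 1 of 12 spring fish and 3 of 9 winter fish, and below -4 in 10 and 5. In the 5 parr it was -5.78 at the lowest, -4.92 at the median and -1.40 at the highest. Of the variance of the group mean 0.775% lay on the first component of the non-members, and 34 other probes followed it at r over 0.7, of which C110R043 (r = 0.94), C148R148 (r = 0.93) and C163R107 (r = 0.93) were closest.

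Group 3 had 6 members around C136R121. Its mean was below -4 in 31 fish, between -4 and -2 in 52, between -2 and 0 in 34 and above 0 in 63. C136R121 ran from -6.40 to 2.15 in smolts with a median of -3.28, from -5.54 to 1.88 in summer with a median of -0.31, and from -5.31 to 2.68 in fall with a median of -0.04. Smolts were mostly low, and ocean fish lay on both sides. In winter 6 of 9 fish had a group mean above 0, with the highest at 4.03, while none of the 12 spring fish and none of the 5 parr had one. The first component took 1.30% of its variance, and 33 other probes followed it at r over 0.7, led by C022R139 (r = 0.95), C065R023 (r = 0.93) and C187R054 (r = 0.92).

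**Figure D3:**
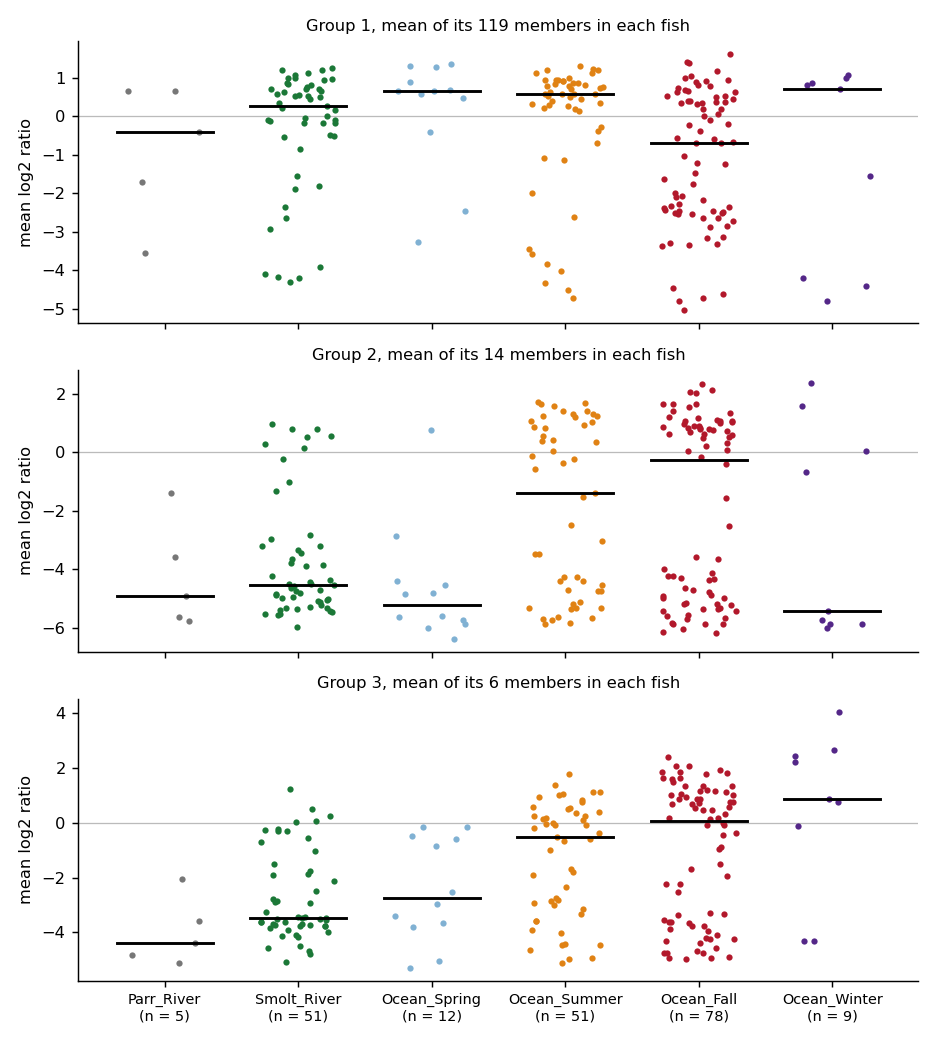
Mean log2 ratio of the members of groups 1, 2 and 3 in each fish (points) by stage, with the median as a black line. Group 1 has most smolts and summer fish near 0 with a tail downwards, and 31 of 78 fall fish at or below -2. Group 2 has fish at a high and at a low level in most stages, while group 3 is spread over the range between.

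The means of the 3 groups, centred as above, correlated at r = 0.07 (groups 1 and 2), 0.17 (groups 1 and 3) and -0.04 (groups 2 and 3) over the 180 fish. A line was set at -2. For group 3 it marks no gap, with 52 of the 180 fish between -4 and -2 and 34 between -2 and 0. In fall 25 fish were above the line in groups 2 and 3 together, 16 in group 2 alone, 24 in group 3 alone and 13 in neither. In summer these numbers were 17, 10, 15 and 9. In smolts they were 3, 7, 13 and 28. All 4 combinations thus occurred in each of these stages.

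**Figure D4:**
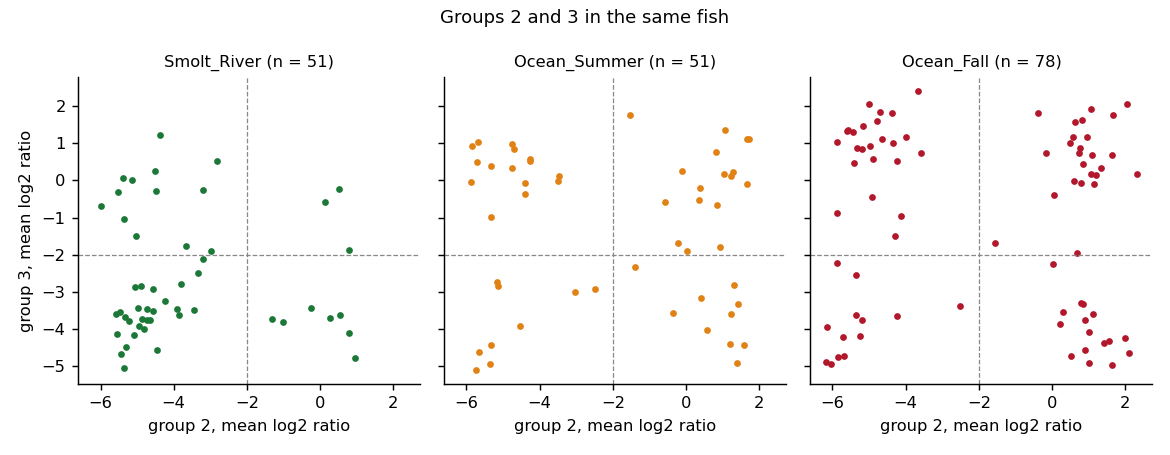
Mean log2 ratio of group 2 (horizontal axis) against that of group 3 (vertical axis) in each smolt, summer fish and fall fish, with dashed lines at -2. Fish fill all 4 corners in summer and fall; in smolts 28 of 51 lie in the lower left.

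Of the 11 members outside the groups, C137R062 and C223R107 had the highest bimodality coefficients of all members (0.68 and 0.56), a measure that rises both with a split into levels and with skewness. C137R062 was below -4 in 31 of 180 fish, between -4 and -2 in 6, between -2 and 0 in 61 and above 0 in 82. It was a single member in the tree. In smolts it was below -4 in 5 fish and above 0 in 31. In summer it was below -4 in 10 fish and above 0 in 14, and in fall in 16 and 37. C223R107, also a single member, was below -4 in 35 of the 180 fish, between -4 and -2 in 37, between -2 and 0 in 91 and above 0 in 17. The set of 4 held C086R068, C148R013, C215R154 and C244R022, and the pair C011R069 and C073R030.

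Sex was compared within stage, year and place in 140 fish, with the slide as a random block. In fall the group 1 mean had a median of -0.67 in 41 females and -1.13 in 36 males, and in summer 0.57 in 19 females and 0.51 in 23 males. For group 2 the fall medians were -1.55 in females and -0.28 in males, and for group 3 they were -0.39 and 0.55. The ranges of the sexes overlapped in each group and stage. No member passed the test (limma, adjusted p under 0.05), where 0% of all 38093 tested probes did, and none had an unadjusted p under 0.05, beside 1201 of all probes. For C145R160 the male minus female difference was -0.20 ± 0.58 (SE) and for C136R121 0.47 ± 0.42. Within summer fish alone and within fall fish alone 0 members passed as well (0% of all probes in each), with 1 member at an unadjusted p under 0.05 in each.

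Length was tested as a slope per cm of fork length within place and year. No member passed in the 51 smolts (background 0%), in the 51 summer fish (0%) or in the 78 fall fish (0.207%), and unadjusted p-values were under 0.05 for 3, 11 and 7 members. These are 2%, 7.33% and 4.67% of the members, none above the 5.61%, 7.71% and 9.66% of all probes in this fit. Other settings moved the summer share above that of all probes. It was 23.3% beside 7.53% with the slide as a fixed term and 18% beside 9.4% after quantile normalization. With array SD and the share of empty values as terms it was 26% beside 11.2%. In fall it was 18% beside 12.8% with those terms, but 0% beside 5.61% with the slide fixed. In smolts it stayed below in each setting. Of group 3, all 6 members had a positive slope in fall, with a median of 0.19 log2 units per cm, and 3 of them an unadjusted p under 0.05 (smallest limma adjusted p = 0.43). These 6 members move together, so their shared sign is not 6 separate results. For C136R121 the fall slope was 0.17 ± 0.09 per cm.

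Among the rivers of 2009, the mean of group 3 ran from -3.83 to 0.25 with a median of -0.28 in 8 Puntledge smolts, while the medians were -3.07 in Capilano, -3.67 in Chehalis and -3.62 in Salmon smolts. The ranges overlapped, and the highest Salmon smolt reached 1.22. C038R008 of this group had the smallest p of all members: its median was 0.05 in Puntledge smolts and -3.82, -4.52 and -4.45 in Capilano, Chehalis and Salmon smolts. The F test over rivers gave F = 8.60 with an adjusted p of 0.12 by limma, which missed the threshold. F was 1.68 and the limma adjusted p 0.64 when the slide was a fixed term. All 6 members of group 3 had unadjusted p-values under 0.05, as did 16 members in all (10.7%, beside 8.68% of all probes), and 0 members passed, where 0.00346% of all probes did. The second smallest was C157R025 (F = 5.94, limma adjusted p = 0.26). River went with origin: the Puntledge and Chehalis smolts were all hatchery fish, the Salmon smolts all wild, and Capilano had both. Puntledge smolts were also long, from 11.9 to 13.4 cm. The F test over rivers has no term for origin or length and does not separate them from river. The 3 stock regions of Strait fish in summer and fall (Fraser, ECVI and S_Main) gave 0 calls among members and 0% among all probes by limma, with 1 member under an unadjusted p of 0.05. That member was C223R107 (F = 3.42, limma adjusted p = 0.92), followed by C156R108 (F = 2.99, limma adjusted p = 0.95).

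Most members of groups 2 and 3 were higher in ocean summer and fall fish than in river smolts. Of the 14 members of group 2, 12 were called higher from smolt to summer and 13 from smolt to fall, and all 6 members of group 3 in both. Of all probes tested, 3.61% were called higher from smolt to summer and 16.2% from smolt to fall. The comparisons share the smolts and were added after the first results were seen, since the planned steps pass through the 12 spring fish. The mean of group 2 had a median of -4.56 in smolts, -1.40 in summer and -0.28 in fall, and that of group 3 -3.46, -0.52 and 0.06. The ranges of the stages overlapped. Fish with a group 2 mean above 0 were 7 of 51 smolts, 21 of 51 summer fish and 38 of 78 fall fish, and those with a group 3 mean above 0 were 5, 19 and 39. The higher summer level of group 2 was not seen off the west coast. There the 8 summer fish had group 2 means from -5.69 to -3.47 with a median of -5.02. Nor was the higher level of group 3 seen in the 8 Strait summer fish of 2008, with means from -3.93 to -2.35. The 8 Puntledge smolts, with a group 3 median of -0.28, were not low.

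From smolt to summer 18 members were called, all higher and all of groups 2 and 3, where 7.01% of the 38229 probes tested were called and 3.61% called higher. The largest rises were those of C244R033 (2.23 ± 0.52, limma adjusted p = 0.0027) and C136R144 (2.20 ± 0.56, limma adjusted p = 0.0063). C244R033 ran from -6.26 to 2.12 in smolts with a median of -4.07, and from -6.94 to 3.40 in summer with a median of -0.37. For the central members C145R160 and C136R121 the changes were 1.80 ± 0.55 and 1.61 ± 0.40 (limma adjusted p = 0.029 and 0.0045). Place and length differ with stage between river and sea, and these cannot be told apart here. With array SD and the share of empty values as terms 12 members of group 2 and 6 of group 3 were called, where 7.57% of all probes were. With the slide as a fixed term 1 member was called, of group 3, where 1.1% of all probes were, and the median changes were 1.77 in group 2 and 1.52 in group 3. With 2009 fish only, 6 members were called, where 3.99% of all probes were. Of these, 4 of group 3 and 1 of group 1 were higher (2.02% of all probes), C244R022 was lower (1.98%), and 0 were of group 2, although 9 of its members had an unadjusted p under 0.05 by limma and the median change was 1.22.

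From smolt to fall 76 members were called, 19 higher and 57 lower, where 32.9% of all probes were called, 16.2% higher and 16.7% lower. The 19 higher were 13 of group 2 and 6 of group 3, and 53 of the 57 lower belonged to group 1. C136R144 rose by 2.80 ± 0.60 (limma adjusted p = 8.6e-05) and C266R061 by 2.37 ± 0.49 (limma adjusted p = 4.6e-05). C136R144 was above the pool in 1 of 51 smolts, 19 of 51 summer fish and 38 of 78 fall fish. C017R103 of group 1 (-1.93 ± 0.32, limma adjusted p = 3.3e-07) and C086R068 of the set of 4 (-1.71 ± 0.37, limma adjusted p = 8.9e-05) had the largest falls. The other 3 members of that set, C148R013, C215R154 and C244R022, also fell, by 1.06, 1.19 and 1.40. With 2009 fish only 122 members were called (42.9% of all probes, 21.1% higher and 21.8% lower), among them 4 of group 2 and 4 of group 3, all of these higher, and 109 of group 1, all lower. With the slide as a fixed term 4 were called, 2 of group 1, 2 of group 3 and 0 of group 2, whose median change was 1.74; these 4 are 2.67% of the members, where 8.54% of all probes were called. With array SD and the share of empty values as terms 51 (34%) were called, near the 28.4% of all probes, of which 6 belonged to group 2, 6 to group 3 and 35 to group 1.

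In the fit of the planned steps no member passed from smolt to spring (0.378% of 31211 probes), from spring to summer (0.211%) or from fall to winter (1.35%) by limma. Unadjusted p-values were under 0.05 for 1, 14 and 1 members. These are 0.667%, 9.33% and 0.667% of the members, none above the 9.75%, 9.54% and 13.4% of all probes. With the slide as a fixed term 5 members were under 0.05 from spring to summer (3.33%, beside 6.5% of all probes). The 14 members from spring to summer were those of group 2, with a median change of 2.34 and a smallest adjusted p of 0.16. The group mean had a median of -5.23 in the 12 spring fish and -1.40 in the 51 summer fish. C145R160 changed by 2.93 ± 0.99 (limma adjusted p = 0.22).

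From summer to fall 59 members fell, all of group 1, where 24.3% of all probes were called, 12.6% lower and 11.7% higher. The largest falls were those of C070R079 (-1.53 ± 0.48, limma adjusted p = 0.012) and C017R103 (-1.44 ± 0.32, limma adjusted p = 0.00036). C017R103 ran from -5.33 to 2.06 with a median of -0.10 in summer and from -5.57 to 1.85 with a median of -2.31 in fall. Both ranges overlapped, and 23 summer fish but 7 fall fish were above the pool. With the slide as a fixed term 0 members were called by limma, 12 having an unadjusted p under 0.05, where 6.87% of all probes were called, and the median change of group 1 was -0.40 in place of -0.82. With array SD and the share of empty values as terms 13 members (8.67%) were called, fewer than the 16.1% of all probes. In these settings the members were not called more often than other probes.

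The step from summer to fall went opposite ways in the 2 years within the Strait. In 2008 the group 1 mean ran from -4.71 to 0.79 with a median of -3.70 in 8 summer fish and from -2.71 to 0.88 with a median of 0.53 in 11 fall fish. In 2009 it ran from -4.02 to 1.29 with a median of 0.57 in 35 summer fish and from -4.71 to 0.50 with a median of -2.07 in 43 fall fish. Fish far below the pool were thus 5 of 8 in summer 2008, 1 of 11 in fall 2008, 3 of 35 in summer 2009 and 22 of 43 in fall 2009, counting group means below -2. Array spread moved with them: the median array SD in these 4 sets was 0.88, 0.64, 0.65 and 0.74, and the median share of empty values 41.0%, 35.9%, 30.7% and 39.5%. Its part in the difference was not tested.

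Tested as a stage by year term in the 97 Strait fish, the difference between the years was called for 121 members (25.1% of 28454 probes tested, 14.1% lower and 11% higher in 2009). Of these, 118 belonged to group 1 and were lower in 2009, as was C064R078 of group 3, and C086R068 and C148R013 were higher. The term was chosen after the difference between the years had been seen. C081R023 had a summer to fall step lower by 5.13 ± 1.06 in 2009 than in 2008 (limma adjusted p = 0.00044). With the slide as a fixed term 0 members and 2 of 24789 probes were called by limma, 2 members having an unadjusted p under 0.05. The median of group 1 was then -0.94 in place of -3.53. That of group 2 turned from 0.71 to -3.73, and that of group 3 from -2.12 to 1.05. Within the northern-mid Strait of 2009, 114 members of group 1 fell (33.7% of all probes were called, 17.5% lower and 16.2% higher), with a median change of -1.97, as did C094R002 of group 2 and the pair C011R069 and C073R030. Within the Strait of 2008, 29 members of group 1 rose (7.08% of all probes were called, 3.71% higher), with a median of 2.47 over the group. In neither subset did a slide hold both stages. The northern-mid Strait fish of 2009 lay on 19 summer and 13 fall slides, 32 in all. The Strait fish of 2008 lay on 6 summer and 8 fall slides, 14 in all. Season and slide thus cannot be told apart within these subsets. In the south Strait of 2009 (0.594%) and off the west coast in 2009 (0.319%) no member was called by limma, with 10 and 49 members at an unadjusted p under 0.05. Off the west coast group 2 had a median change of 3.59, the smallest adjusted p among its members being 0.054; that fit has no slide term, since its 15 fish lie on 14 slides. With year and place as terms, 49 members fell (25.5% of all probes were called, 12.6% lower and 12.9% higher), 47 of them of group 1.

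A pair of members of the set of 4 went the other way in 2008. C086R068 ran from -1.65 to 2.67 with a median of 0.39 in the 8 Strait summer fish of 2008 and from -5.72 to -2.26 with a median of -4.49 in the 11 fall fish, so that the stages did not overlap. C148R013 ran from -0.56 to 3.16 in those summer fish and from -5.90 to -0.63 in those fall fish. These were the only 2 members called lower within the Strait of 2008 (3.38% of all probes), with changes of -4.81 ± 0.59 and -5.25 ± 0.67 (limma adjusted p = 5.6e-05 and 8.6e-05). C148R013 and C086R068 were singled out for this comparison after their values were seen. In 2009 their Strait medians were -4.10 and -2.68 in summer and -3.86 and -2.68 in fall, and single summer fish of 2009 reached 4.39 and 3.18. The same 8 fish of 2008 were low in group 3, with every mean between -3.93 and -2.35, while the 35 Strait summer fish of 2009 ran from -5.11 to 1.78. The 8 fish lie on 6 slides.

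**Figure D5:**
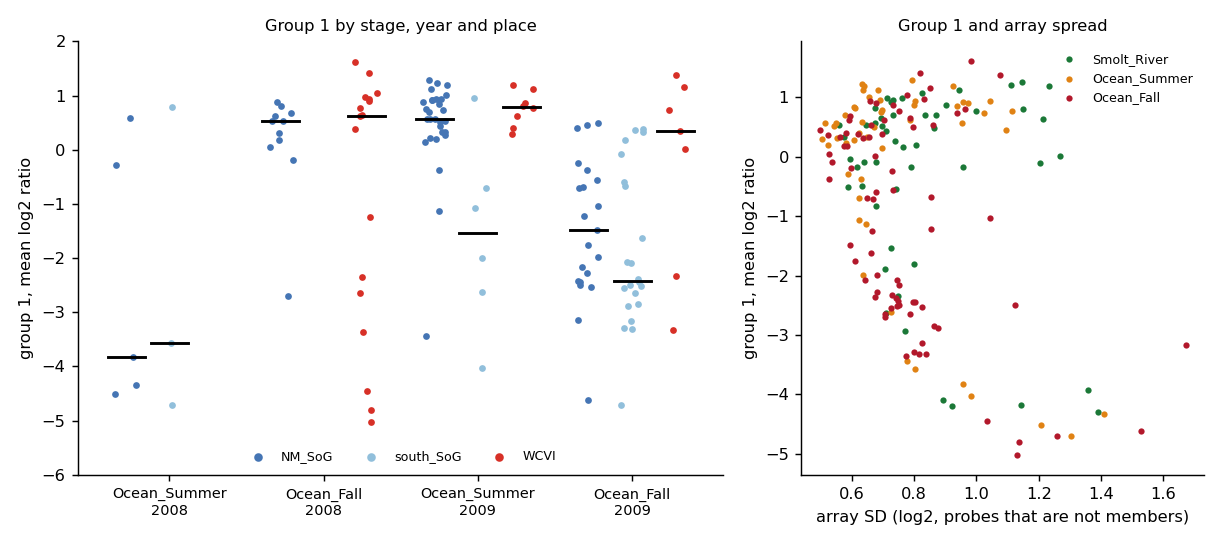
Left, group 1 mean log2 ratio of each summer and fall fish by year and place (colours), with medians as black lines. Right, the same mean against array SD, the SD of the probes with all values that are not members, in smolts, summer and fall fish. Of the Strait fish, 5 of 8 in summer 2008 and 22 of 43 in fall 2009 lie below -2, and the lowest means lie on arrays of wide spread.

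In summer and fall, 10 members were higher off the west coast than in the Strait by limma, all of group 1, where 18.1% of all probes were called, 6.34% higher and 11.7% lower. Against that background 10 of 150 is no result about the members. Coast went with stock: of the 32 west coast fish, 10 were labelled Columbia, 5 Puget_Sound, 4 Oregon and 3 Washington, regions with no Strait fish, and 40 of the 97 Strait fish were labelled Fraser, a region with no west coast fish. The remaining west coast fish were labelled North (4), ECVI (3), S_Main (2) and Chilliwack_R (1), and the remaining Strait fish ECVI (30), S_Main (21), Chilliwack_R (4) and North (1), with 1 not given. Coast and stock cannot be told apart in this comparison. West coast fish were also more often wild, and those of fall 2009 were mostly longer than the Strait fish. The fit has no term for origin or length and does not separate them from coast. C070R079 had a coast difference of 1.50 ± 0.54 (limma adjusted p = 0.038) and C054R088 one of 1.33 ± 0.43 (limma adjusted p = 0.021). C070R079 ran from -6.31 to 3.24 with a median of 0.55 in 32 west coast fish and from -6.49 to 1.79 with a median of -1.13 in 97 Strait fish. With array SD and the share of empty values as terms neither was called (1.19 and 0.94, limma adjusted p = 0.072 and 0.083), nor with the slide as a fixed term (0.46 and 0.32, limma adjusted p = 0.80 and 0.84), and C070R079 was not called with arrays scaled to the same SD (1.29, limma adjusted p = 0.054). The median of group 1 was 0.08 in place of 0.74 when the slide was fixed. The difference did not hold in each stage and year. In fall 2009, 16 members were called higher (9.73% of all probes were called, 3.44% higher and 6.3% lower). All 119 of group 1 then had fitted differences above 0 with a median of 1.39. In fall 2008 no member was called (2.02%), and all 119 had fitted differences below 0 with a median of -1.26. In that season the group 1 mean had a median of 0.62 in 17 west coast fish and 0.53 in 11 Strait fish. Its average was -0.86 and 0.16, and its lowest value -5.03 and -2.71. At an unadjusted p under 0.05 were 37 members (24.7%, beside 17.5% of all probes). Group 1 was formed by correlation, so a sign shared by its 119 members is not 119 separate results. In summer 2009 none was called (0.0242%), with 27 at an unadjusted p under 0.05 (18%, near the 15.5% of all probes). The term for coast by year in fall called 0 members by limma (0.0597% of all probes). It was chosen after this turn of the fitted differences had been seen, so it is no separate test of the turn. An unadjusted p under 0.05 by limma was found for 100 members, all of group 1 (66.7%, beside 20.5% of all probes). With the slide as a fixed term 24 members were under 0.05 (16%, beside 7.82% of all probes). The median of the term over the members was then 1.38 in place of 2.23.

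For group 2 no member passed in a comparison of coasts. In summer 2009 the means of all 8 west coast fish were low, from -5.69 to -3.47, while the 29 northern-mid Strait fish ran from -5.89 to 1.72 with a median of 0.57. The 6 south Strait fish lay between -5.13 and 1.59, median 0.12. The fitted difference had a median of -3.55 over the 14 members and a smallest limma adjusted p of 0.081. In fall 2008 the sign was the other way: the 17 west coast fish had a median of 0.51 and the 11 northern-mid Strait fish one of -4.89, with a median difference of 2.54 and a smallest limma adjusted p of 0.21. In fall 2009 the medians were 0.31 off the west coast, -1.55 in the northern-mid Strait and 0.15 in the south Strait. None of these differences passed the test, and fish at both levels were caught in each of these places apart from the west coast in summer 2009.

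Low group 1 means went with wide array spread. In smolts the 8 fish with a group 1 mean at or below -2 had array SDs of 0.71 to 1.39 with a median of 0.91, and the other 43 fish 0.56 to 1.27 with a median of 0.74. In summer the medians were 0.97 in 8 low fish and 0.65 in 43 others, and in fall 0.80 in 31 low fish and 0.67 in 47 others. The ranges overlapped in each stage. The slope on array SD, within stage, year and place, was called for 115 members (42.6% of 39492 probes), 113 of them lower (19.4%) and 2 higher (23.2%) on arrays of wide spread. Of group 1, 111 of 119 members were called, with a median slope of -3.27 log2 units per unit of array SD, and none of groups 2 and 3. The steepest were C046R103 (-5.97 ± 0.53, limma adjusted p = 1.1e-18) and C204R060 (-5.44 ± 0.54, limma adjusted p = 4.5e-16). In this fit only C148R013 and C053R025 had called slopes upwards (1.58 ± 0.67 and 1.48 ± 0.61, limma adjusted p = 0.046 and 0.039). With the slide as a fixed term the slope of C148R013 was 1.97 and not called (limma adjusted p = 0.067). With arrays scaled to the same SD 94 members were called (30.8% of all probes), 79 lower (15.2%) and 15 higher (15.5%). After quantile normalization 90 were called (28.9%), 87 lower (14.8%) and 3 higher (14.1%). The median slope of the members was -1.41 and -1.73 in these settings, in place of -2.74. Members have a value on all arrays, and over such probes only 117 members were called (78%, beside 61.4% of these probes). Of them 115 were lower (35.4% of these probes) and 2 higher (25.9%). With the share of empty values in place of array SD, 122 members were called (39.7% of all probes). All 119 members of group 1 and C180R064 were lower (20%), and C136R144 of group 2 and C148R013 were higher (19.7%). Of the 2111 non-members that move with group 1, 798 have a value on all arrays and so enter array SD, and 1313 do not. Whether a wide array SD and a low group 1 are the same property of an array was not tested, and the 2 cannot be told apart here.

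Slides were compared with an F test over slides within stage, year and place. By limma 59 members differed among slides, where 26.3% of the 10942 probes with all values did: 49 of 119 in group 1, 3 of 14 in group 2 and 1 of 6 in group 3. The smallest p-values were those of C207R034 (F = 2.92, limma adjusted p = 7.5e-05) and C191R094 (F = 2.67, limma adjusted p = 0.00030). With array SD and the share of empty values as terms 131 members differed (87.3%, beside 39.8% of these probes). With arrays scaled to the same SD 47 did (31.3%, beside 25.2%), and after quantile normalization 45 (30%, beside 21.5%). Slide accounted for a median of 40.8% of the variance of a member within stage, year and place and for 39.4% of that of all probes with all values, where the number of slides alone would give 33.5%. Fish sharing a slide could differ in level. In 38 sets at least a pair of fish shared slide, stage, year and place, and some slides held more than a single set. The fish of a set fell on both sides of -2 in 13 sets for group 1, 19 for group 2 and 15 for group 3.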

How the data were processed

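Per the labels' protocols, brain RNA of each fish was amplified and labelled with one Alexa dye and the pool of all brain samples with another, and no dye swap is named. The authors deposited ratios whose log base, direction and normalization no label states; the deposited values were used unchanged and are read here, from the values alone, as log2 of fish over pool. A second deposited table, whose columns name no unit and are treated as a unit of type "other", holds the same values in every cell and 18 control rows. How spots were quantified, corrected and filtered (34.5% of values are empty) is not given in the sources used here.

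Stage came from the season label, each fish number was taken as 1 animal, and the slide from the array name in the labels. Each fish has 1 array and whether arrays share an extraction is not stated. The p-values thus measure the spread between these fish and between their arrays together. Tests were linear models per probe over all 43630 probes (limma 3.58.1, R 4.3.3; Python 3.11.15 for the tables) with slide as a random block, at least 3 values on each side, eBayes-type moderation of the variances, and Benjamini-Hochberg adjusted p-values with a threshold of 0.05 over all tested probes. An empty value was dropped from the fit of that probe; the code for this differed from limma's functions by at most 1.1e-16 log2 units on 500 probes and was tested on simulated data. Average linkage on 1 minus r, with a limit of r = 0.5, gave the groups. The alternatives were slide as a fixed term, 2 other scalings, complete probes only, array spread as terms, subsets of the fish and other rules for members and groups.

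The members and all lists and tests were chosen with earlier results of these data known. Named probes are, per comparison, the at most 2 called members with the largest rise and 2 with the largest fall (2 smallest p for F tests), the centre of each group, the 3 widest members, the probes at the limit and the 2 members with the highest bimodality coefficient; for the groups, the 3 closest other probes are also given. The gene lists written down for named probes could not be used, because no table used here pairs probes with genes.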

Additional observations from a re-analysis of the deposited data

Results flagged for a closer look

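In sets of 5 parr and 9 winter fish, 54 sets of values (3 group means and the named members, in 2 stages) were examined for a fish apart from the others, and 5 were found; chance sets about 1 in 20 groups apart. C053R025 was lowest in parr fish 39 at -4.48, with the other parr between -1.88 and -1.19. Parr fish 36 was lowest for C046R103 at -4.58 and for C204R060 at -4.31, both of group 1, with the other parr between -0.73 and 0.52 and between -0.54 and 0.93. C266R061 of group 2 was highest in parr fish 38 at -2.14, with the other parr between -5.51 and -4.66. C086R068 was highest in winter fish 4215 at 1.02, with the other winter fish between -6.74 and -3.53. The difference between years in the summer to fall step of Strait fish was called for 121 members by limma (25.1% of all probes). For C081R023 it was -5.13. The test was that of the difference itself, and the term was chosen after the difference had been seen. With the slide as a fixed term 0 members and 2 of 24789 probes were called by limma.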

How the results depend on the processing

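No paired analysis was possible because each fish number occurs once and links no fish across groups. The settings tried left 0 members called for sex, length, rivers, stock regions, smolt to spring, spring to summer and fall to winter throughout, and groups 2 and 3 kept their 14 and 6 members together in the 6 other groupings tried, with 117 to 119 of group 1. With the slide as a fixed term the members called fell to 0 for coast, to 0 for summer to fall, to 1 for smolt to summer, to 4 for smolt to fall and to 0 for the stage by year term in the Strait. With array SD and the share of empty values as terms, summer to fall called 13 members (16.1% of all probes) and slides 131 (39.8%). The coast difference called 16 members after quantile normalization (7.21% of all probes were higher) and 16 over complete probes only (15.8% higher), 10.7% of the members each; within summer 2009 and fall 2008 it called 0, and within fall 2009 16. Summer to fall called 117 members within the northern-mid Strait of 2009 and 0 within the south Strait of 2009. It called 0 within the west coast of 2009 and 31 within the Strait of 2008. Smolt to summer and smolt to fall called 6 and 122 with 2009 fish only. These subsets, the stage by year term, the coast by year term and both smolt comparisons were chosen after seeing the data. Fitted directions turned for C070R079 (-1.38) and C054R088 (-0.99) in the coast difference within fall 2008. The median of C070R079 was still higher off the west coast (0.47) than in the Strait (-0.25) there, with lowest values of -6.31 and -5.18. Fitted directions also turned for C070R079 (2.62) and C017R103 (1.02) in summer to fall within the Strait of 2008. The cause was not tested. By the median absolute deviation 66 members were again among the 150 highest, and by the other 4 rules 118 to 134. Of the 119 members of group 1, 36 were so by the median absolute deviation and 87 to 104 by the other 4 rules. All 14 of group 2 and all 6 of group 3 were so under each of the 5 rules. Members among the top 5% by SD in parr numbered 111 to 139 when 1 parr was left out. The number of arrays and the unknown signal over background limit what could be seen.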
